A study of Mus musculus with 14 samples.

Results

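The 40 genes described here encode proteins of striated skeletal muscle: the sarcomere, its calcium cycle and its energy supply. They were taken by name from the deposited table, in which all 40 were found, each as 1 row, among 56552 rows. The libraries were RNA-seq of adipose tissue from C57BL/6 mice at postnatal week 21, 7 from mice labelled KO-Dectin1 (KO 1 to 7) and 7 from mice labelled wild type (WT 3 to 9). Dectin-1 is an innate immune receptor for fungal β-glucans, encoded by Clec7a. The labels name neither the fat depot nor the sex, diet or allele. Levels are in TPM, transcript abundances corrected for gene length and scaled to the same total in each library. By the fibre type in which textbook knowledge places them, 15 of the genes are fast, 8 are slow and 17 are shared.

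Skeletal muscle fibres contract when calcium released from the sarcoplasmic reticulum binds troponin on the thin filament and lets myosin of the thick filament pull on actin. Fast and slow fibres build the same machine from different genes, so that most filament proteins have a fast and a slow isoform, and the myosin heavy chain in use defines the fibre type. In mice Myh4 marks the fastest, glycolytic IIb fibres, Myh1 the IIx fibres, Myh2 the IIa fibres and Myh7 the slow type I fibres. Adipocytes are not known for most of these genes. Some of the genes, among them the tropomyosins and desmin, are also used outside skeletal fibres.

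The proximal promoters of the 4 adult heavy chains are shown because the fibre types are told apart by these genes. Each window runs from 250 bases before to 50 bases after the gene's start in RefSeq (GRCm38.p6), is printed 5′ to 3′ on the gene's strand, and has in capitals each CANNTG (the E-box of the MyoD family), each consensus site of the muscle factor MEF2 and each TATAAA.
Myh4, chr11:67237562-67237861, plus strand: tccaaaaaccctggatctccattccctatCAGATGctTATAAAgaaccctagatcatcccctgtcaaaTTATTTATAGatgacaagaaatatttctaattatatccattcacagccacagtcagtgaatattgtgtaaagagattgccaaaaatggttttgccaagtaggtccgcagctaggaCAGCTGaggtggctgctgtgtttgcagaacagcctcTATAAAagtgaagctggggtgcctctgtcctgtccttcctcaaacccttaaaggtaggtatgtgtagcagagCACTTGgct
Myh1, chr11:67199852-67200151, plus strand: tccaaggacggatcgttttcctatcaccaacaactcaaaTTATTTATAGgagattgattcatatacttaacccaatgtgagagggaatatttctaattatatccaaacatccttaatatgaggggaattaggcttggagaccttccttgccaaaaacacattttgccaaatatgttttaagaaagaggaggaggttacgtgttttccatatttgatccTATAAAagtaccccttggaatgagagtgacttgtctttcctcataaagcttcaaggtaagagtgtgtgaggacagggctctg
Myh2, chr11:67170777-67171076, plus strand: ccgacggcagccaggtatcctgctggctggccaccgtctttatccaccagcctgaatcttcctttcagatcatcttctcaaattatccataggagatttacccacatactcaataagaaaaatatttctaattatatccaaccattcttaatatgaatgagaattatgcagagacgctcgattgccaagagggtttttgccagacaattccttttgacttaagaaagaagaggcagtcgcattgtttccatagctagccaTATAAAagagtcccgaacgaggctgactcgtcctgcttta
Myh7, chr14:54994500-54994799, minus strand: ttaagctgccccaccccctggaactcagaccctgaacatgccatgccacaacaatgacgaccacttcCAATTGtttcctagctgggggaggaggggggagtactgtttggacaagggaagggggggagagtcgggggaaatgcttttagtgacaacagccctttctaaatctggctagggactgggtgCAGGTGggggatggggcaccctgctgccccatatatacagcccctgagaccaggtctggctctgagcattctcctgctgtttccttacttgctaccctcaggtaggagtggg
Counted from the start site, the Myh4 window held CANNTG at -221, -67 and 42, of which the one at -67 reads CAGCTG, a MEF2 consensus at -182, TATAAA at -213 and -31, and a CArG box, the element bound by serum response factor, at -104, left in lower case. The Myh1 window held a MEF2 consensus at -211 and TATAAA at -32, and the Myh2 window held TATAAA at 11. RefSeq has a pair of overlapping Myh7 windows. Of the motifs searched, the one printed held CANNTG alone, at -183 and -62. RefSeq windows were at hand for 33 of the 40 genes, as 41 windows. CAGCTG, on either strand and counted also as a CANNTG, was in 21 of these 41, against 16.3% of all 32841 promoter windows of the same length. CANNTG on either strand was in 35 of the 41, against 72.3% of all windows. For the MEF2 consensus the number was 5 of 41 against 3.19%, for the CArG box 5 of 41 against 1.63%, both on either strand, and for TATAAA on the gene's strand 5 of 41 against 8.32%. A match describes letters and does not show that a factor is bound there.

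The libraries also differed in other cell types. KO 7, WT 4 and WT 7 stood apart, with 0.62 to 1.52 TPM of Cd79a, a subunit of the B-cell receptor, against 177 to 720 TPM in the other 11 libraries. The genotype comparisons of the muscle genes described above and of their fast to slow ratios are therefore given with and without these 3. Those of all other gene lists, further skeletal muscle genes among them, and the correlations are given over all 14 libraries only. Whether the directions in those lists hold without these 3 is not given. Clec7a, the gene named in the knockout label, averaged 6.94 ± 2.61 TPM in KO libraries and 10.99 ± 5.99 TPM in WT libraries (SD, n = 7 each), and was measured in every KO library. The deposited values have 2 decimals and no read counts, so the depth behind them is unknown and a gene at 0 is only listed at 0. Adiponectin (Adipoq), the adipocyte hormone, averaged 1652 ± 839 TPM in KO and 2967 ± 837 TPM in WT libraries (SD, n = 7 each), and was at 683 TPM or more in all 14.

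The main feature of the muscle genes was how far they varied between mice of the same genotype. Their summed level was 443 TPM at the lowest, 661 at the median and 12781 at the highest among KO libraries, and 488, 3932 and 37915 TPM among WT libraries. This was 0.0443 to 1.28% of all transcripts in KO and 0.0488 to 3.79% in WT libraries. KO 6 was the highest KO library, WT 4 the highest WT library, and both groups held libraries with almost no fibre transcripts. In bulk tissue, fewer muscle fibres and less RNA per fibre cannot be told apart.

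Creatine kinase M (Ckm), which regenerates ATP in working muscle, had 0.31, 20.4 and 1288 TPM as the lowest, median and highest KO values and 0.11, 352 and 4679 TPM as those of WT. Ckm was at 10 TPM or more in 9 libraries, KO 1, 2, 3 and 6 and WT 3, 4, 6, 7 and 8, and under 10 TPM in KO 4, 5 and 7 and WT 5 and 9. Both genotypes thus held libraries with much and with little muscle transcript. Of the 40 genes, 27 had their highest value in WT 4, and 35 had their highest KO value in KO 6. For 12 of them the highest library was more than 1000 times the lowest.

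**Figure D1:**
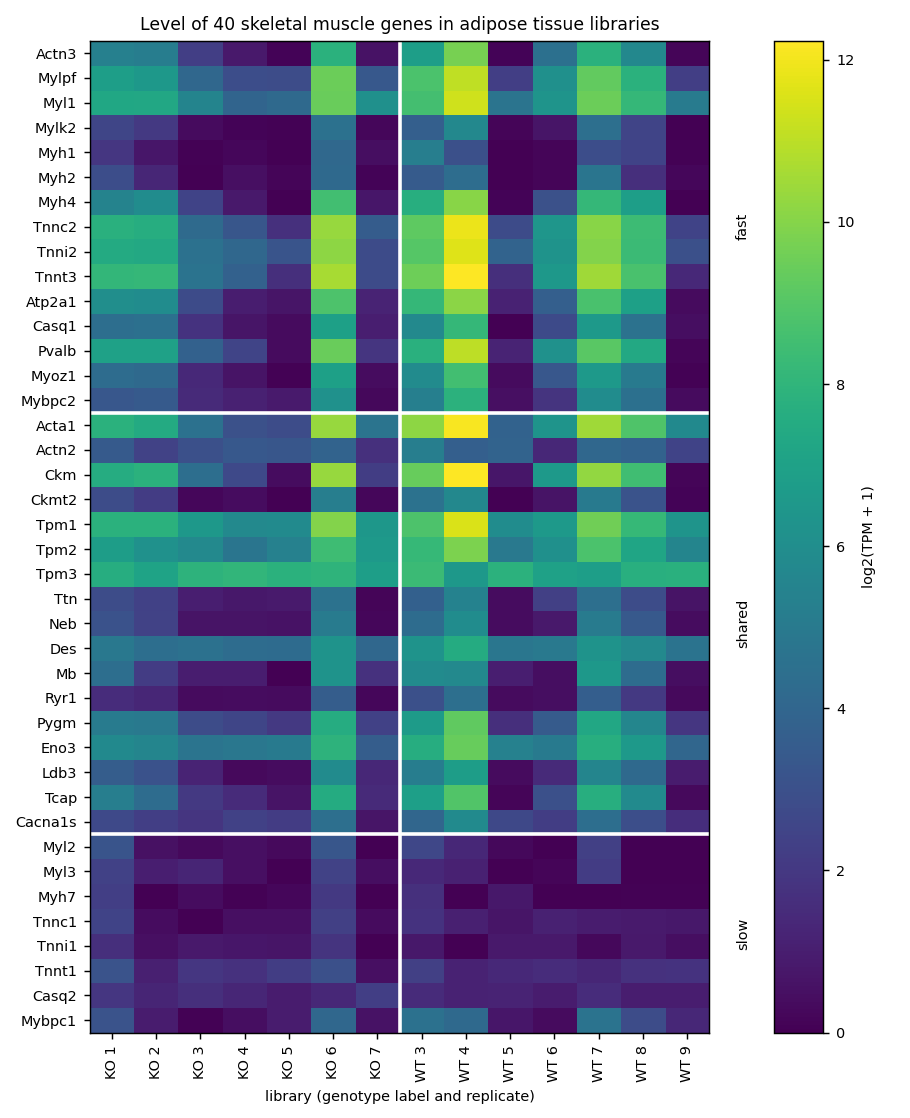
Level of the 40 muscle genes in each of the 14 libraries, as log2(TPM + 1), with genes grouped as fast, shared and slow and KO libraries left of WT libraries. The fast and most shared genes are brighter in KO 6, WT 4 and WT 7 than in KO 5, WT 5 and WT 9. In the latter libraries Myl1, Tpm1, Tpm2, Des and Eno3 are still at 10 TPM or more, and Tpm3 is bright in every column.

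Among the thick filament genes the fast isoforms carried nearly all of the signal. Myh4, the IIb heavy chain, was at 0.01, 4.48 and 370 TPM (lowest, median, highest) in KO and 0.02, 116 and 1065 TPM in WT libraries. Mylpf, the fast regulatory light chain, was at 6.18, 15.9 and 716 TPM in KO and 3.75, 224 and 2153 TPM in WT libraries. The groups overlapped across most of their range in both genes. The other fast heavy chains were lower, Myh1 at 0 to 16.4 TPM in KO and 0 to 36.3 TPM in WT libraries and Myh2 at 0.03 to 17.2 TPM in KO and 0.02 to 26.1 TPM in WT. Myl1, the fast essential light chain, kept a higher floor, with 14.4 to 696 TPM in KO (median 69.7) and 25.4 to 2598 TPM in WT libraries (median 282). Mybpc2, the fast myosin-binding protein C, spanned 0.19 to 71.4 TPM in KO and 0.30 to 229 TPM in WT, and Mylk2, the kinase of the skeletal regulatory light chain, 0.05 to 22.4 TPM in KO and 0.03 to 51.8 TPM in WT.

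On the thin filament, skeletal α-actin (Acta1) was at 6.24, 25.3 and 1304 TPM (lowest, median, highest) in KO and 13.4, 462 and 4412 TPM in WT libraries. The fast calcium sensor troponin C, Tnnc2, was at 2.25, 17.5 and 1319 TPM in KO and 4.55, 335 and 3782 TPM in WT libraries. Fast troponin I (Tnni2), the inhibitory subunit, was at 6.05, 22.3 and 1138 TPM in KO and 7.00, 318 and 3142 TPM in WT libraries. Fast troponin T (Tnnt3), which anchors the complex to tropomyosin, had the highest single value of the 40 genes, 4817 TPM in WT 4. In Tnnt3 the KO libraries ran from 2.18 to 1596 TPM with a median of 24.6, and the WT libraries from 1.68 to 4817 TPM with a median of 419.

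The tropomyosins lie along actin and cover its myosin sites. Tpm1 and Tpm2 followed the other members, with WT 4 and, among KO, KO 6 highest, but from a higher floor than the fast troponins, and Tpm3 did not follow. Tpm1 was at 53.8 TPM or more in every KO library (highest 1009) and 60.7 TPM or more in every WT library (highest 2954). Tpm2 was at 25.8 to 345 TPM in KO and 30.0 to 906 TPM in WT libraries. Tpm3 makes the slow-fibre tropomyosin and also a form used in most cells, and is counted here as shared. Tpm3 was at 117, 226 and 266 TPM (lowest, median, highest) in KO and 89.7, 212 and 318 TPM in WT libraries. Its highest library was 3.54 times its lowest, the narrowest range of the 40 genes, and WT 4, the highest library for 27 of the genes, was its lowest.

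Z-disc and scaffold genes, which hold the filaments in register, followed the fast filament genes with exceptions. Actn3, the α-actinin of fast fibres, was at 0.07 to 221 TPM in KO and 0.08 to 834 TPM in WT libraries, whereas Actn2, the α-actinin of all fibres, was at 2.22 to 13.8 TPM in KO and 1.61 to 37.2 TPM in WT. Titin (Ttn), the giant spring of the sarcomere, reached 23.7 TPM in KO and 42.3 TPM in WT libraries, and nebulin (Neb), the thin filament ruler, 32.8 TPM in KO and 61.6 TPM in WT. Tcap, the cap of titin at the Z-disc, reached 185 TPM in KO and 477 TPM in WT, and Ldb3, a PDZ and LIM protein of the Z-disc, 59.3 TPM in KO and 113 TPM in WT. Desmin (Des), the intermediate filament of muscle cells including smooth muscle, was at 15.8, 20.5 and 77.4 TPM (lowest, median, highest) in KO and 24.6, 53.1 and 186 TPM in WT libraries. Desmin was thus present everywhere. At 29.3 TPM or less lay 6 of the 7 KO libraries and also WT 5 (27.2 TPM) and WT 9 (24.6 TPM), with WT 6 close by at 29.7 TPM.

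Most calcium genes were again highest in KO 6 and in WT 4. Pvalb, the cytosolic calcium buffer of fast fibres, was at 0.28, 12.97 and 702 TPM (lowest, median, highest) in KO and 0.13, 166 and 2063 TPM in WT libraries. Atp2a1, the fast-fibre pump that returns calcium to the sarcoplasmic reticulum, was at 0.61, 6.03 and 451 TPM in KO and 0.28, 121 and 1093 TPM in WT libraries. Casq1, the calcium store of fast fibres, reached 122 TPM in KO and 283 TPM in WT, and Ryr1, the release channel, 11.0 TPM in KO and 21.0 TPM in WT. Casq2, the calsequestrin of slow and heart muscle, did not follow them, with 0.89 to 3.87 TPM in KO and 0.92 to 1.92 TPM in WT libraries. Cacna1s, the voltage sensor that opens Ryr1, was at 0.61 to 21.5 TPM in KO and 2.06 to 56.4 TPM in WT libraries.

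In the energy genes, myoglobin (Mb), the oxygen store of oxidative fibres, was listed at 0, 2.33 and 76.6 TPM (lowest, median, highest) in KO and 0.38, 19.4 and 91.2 TPM in WT libraries. Its highest library was WT 7 and not WT 4. Pygm, the muscle glycogen phosphorylase, spanned 3.10 to 187 TPM in KO and 2.15 to 600 TPM in WT, and Eno3, the muscle enolase, 11.1 to 238 TPM in KO and 15.5 to 669 TPM in WT libraries. Mitochondrial creatine kinase (Ckmt2) reached 36.2 TPM in KO and 50.7 TPM in WT.

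**Figure D2:**
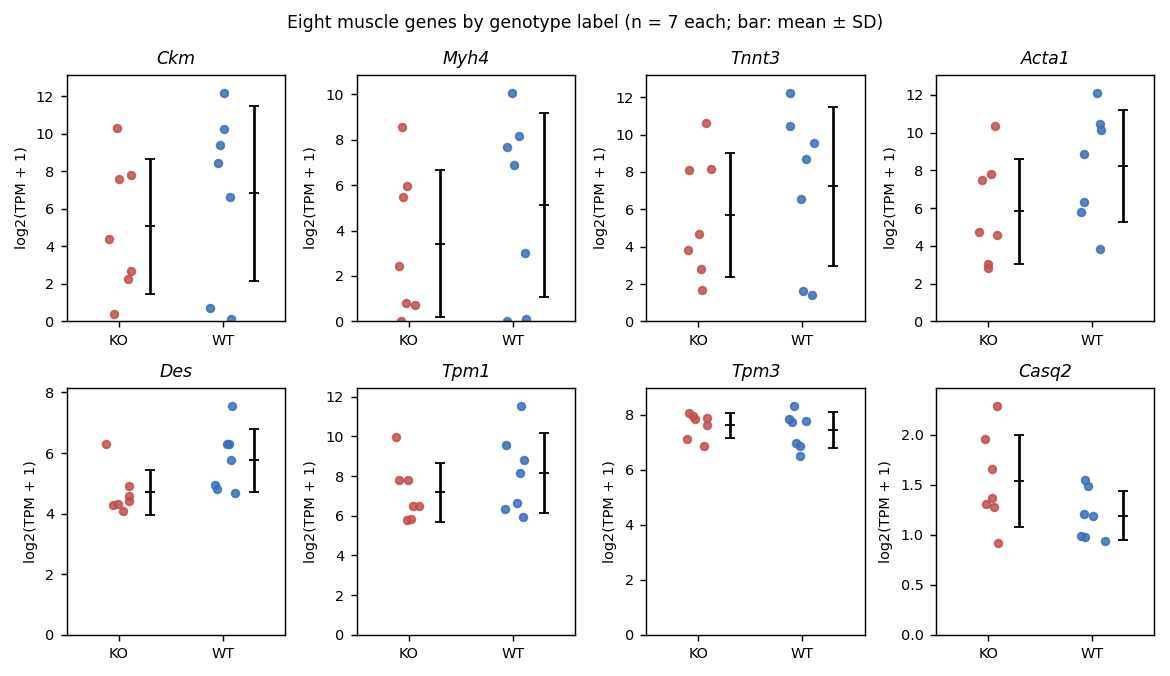
Level of 8 muscle genes as log2(TPM + 1), 1 point per library, KO left and WT right in each panel, with the mean and SD of each group (n = 7 each). The groups overlap in all 8 genes, the points of Ckm, Myh4, Tnnt3 and Acta1 spread widely within each group, and those of Tpm3 and Casq2 span a narrow range.

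Where muscle transcripts were plentiful, 6 of the 15 fast genes kept close to a fixed proportion to Ckm. Set against Ckm in the 9 libraries with at least 10 TPM of it, Tnnc2 was at 86.1 to 112% in KO and 80.8 to 95.3% in WT libraries. Tnnt3 was at 121 to 143% of Ckm in the 4 KO and 93.3 to 119% in the 5 WT libraries. The nearest values were 120.7% in KO 3, where Ckm was at 20.4 TPM, and 119.1% in WT 8. These libraries were picked by their Ckm level, how many other genes part this way was not counted, and the difference was not tested. Myoz1, a Z-disc partner of α-actinin in fast fibres, was at 7.86 to 9.89% over all 9. Actn3, Mylpf, Tnnc2, Tnni2, Tnnt3 and Myoz1 were the 6 genes that varied less than 2-fold by this measure, while Ckm itself varied from 20.4 to 4679 TPM in the same libraries. The other 9 fast genes varied more, from 2.09-fold for Casq1 and 2.21-fold for Pvalb through 4.15-fold for Myl1 and 4.58-fold for Myh4 to 25.9-fold for Myh2 and 48.6-fold for Myh1. Myoglobin varied 27.3-fold, at 1.58 to 10.5% of Ckm in KO and 0.386 to 8.86% in WT libraries, with its lowest shares in KO 2, WT 4 and WT 6.

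In the 5 libraries with little Ckm, KO 4, 5 and 7 and WT 5 and 9, the genes ranged from near 0 to well above it. There 15 of the 40 were under 1 TPM in every library, among them all 4 adult heavy chains, titin, nebulin and Ryr1. Another 6, Myl1, Tpm1, Tpm2, Tpm3, Des and Eno3, stayed at 10 TPM or more in each of the 5. The rest lay between, among them Acta1 at 6.24 to 54.6 TPM, Tnni2 at 6.05 to 16.0 TPM and Mylpf at 3.75 to 9.46 TPM. Acta1 was highest of these 5 libraries in WT 9, where Ckm was at 0.11 TPM.

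Over the 14 libraries, the Pearson correlation of each gene's log2(TPM + 1) with the mean of the other tested members was at least 0.9 for 28 of the 40 genes, and highest, 0.996, for Tcap. It was -0.29 for Tpm3, 0.04 for Casq2 and 0.20 for Tnnt1. All the points share their library scaling, and these values are a description.

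The slow isoforms were at low levels, and their order of libraries was in part that of the fast genes, with WT 4 and KO 1 as the main exceptions. Myl2, the slow regulatory light chain, was at 8.18 TPM in KO 1 and 8.77 TPM in KO 6, and at 5.18 TPM in WT 3 and 3.96 TPM in WT 7, with 1.56 TPM or less elsewhere. Myh7, the slow heavy chain, was at 3.83 TPM in KO 1 and 3.08 TPM in KO 6, and at 2.22 TPM in WT 3, with 0.70 TPM or less elsewhere and 0.01 TPM in WT 4. Tnnc1, the slow troponin C, was at 4.42 TPM in KO 1 and 4.01 TPM in KO 6, and at 2.49 TPM in WT 3. KO 1, KO 6 and WT 3 thus held the highest levels of all 3. KO 6 and WT 3 were also rich in fast-fibre transcripts, whereas KO 1 was less so, and WT 4, the library with the most of them, was low in Myh7.

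The remaining slow isoforms followed this order in part. Slow troponin T (Tnnt1) was at 7.86 TPM in KO 1, 6.89 TPM in KO 6 and 3.95 TPM in WT 3, but was also at 3.73 TPM in KO 5, where Ckm was at 0.31 TPM. Slow troponin I (Tnni1) was at 2.12 TPM in KO 1 and 2.62 TPM in KO 6 and under 1 TPM in every other library. Myl3, the slow essential light chain, was at 4.16 TPM in KO 1 and 4.32 TPM in KO 6, and at 3.49 TPM in WT 7. Mybpc1, the slow myosin-binding protein C, was highest in WT 7 (24.3 TPM) and WT 3 (22.3 TPM), with 15.9 TPM in KO 6. As a description over the 14 libraries, the Pearson correlations of log2 levels among the 28 pairs of slow genes ran from -0.06 (Tnnt1 and Casq2) to 0.91 (Myl2 and Myl3). Casq2 had 0.50 at most, with Myl3, and Mybpc1 had 0.15 with Tnni1 and 0.80 with Myl2. For Myh7 and Tnnc1 Pearson's value was 0.85 and Spearman's 0.36. The 8 slow genes thus did not vary as 1 group. None of the 8 slow genes reached a correlation of 0.9 with the mean of the other members, against 14 of the 15 fast genes. That mean was taken over the tested members, 14 fast, 17 shared and 4 slow, so the contrast depends in part on the make-up of the list. Most slow genes were also at low levels, where log2(TPM + 1) understates changes.

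Summed over 8 proteins with a gene of each kind, the fast isoforms were at 37.2 to 6061 TPM in KO (median 135) and 51.0 to 18095 TPM in WT libraries (median 1747). The slow isoforms were at 5.48 to 47.2 TPM in KO (median 6.93) and 5.26 to 40.4 TPM in WT libraries (median 11.3). The fast sum thus spanned 486-fold over all libraries and the slow sum 8.97-fold. WT 4 had 17.9 times the fast sum of KO 1 but 0.571 times its slow sum. The slow sum was made up of different genes in different libraries. Mybpc1 gave 17.04 of 23.48 TPM in WT 4, 24.31 of 36.36 TPM in WT 7 and 22.32 of 40.35 TPM in WT 3. In KO 1 it gave 7.71 of 41.15 TPM. In KO 7, Casq2 gave 3.87 of 5.48 TPM.

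**Figure D3:**
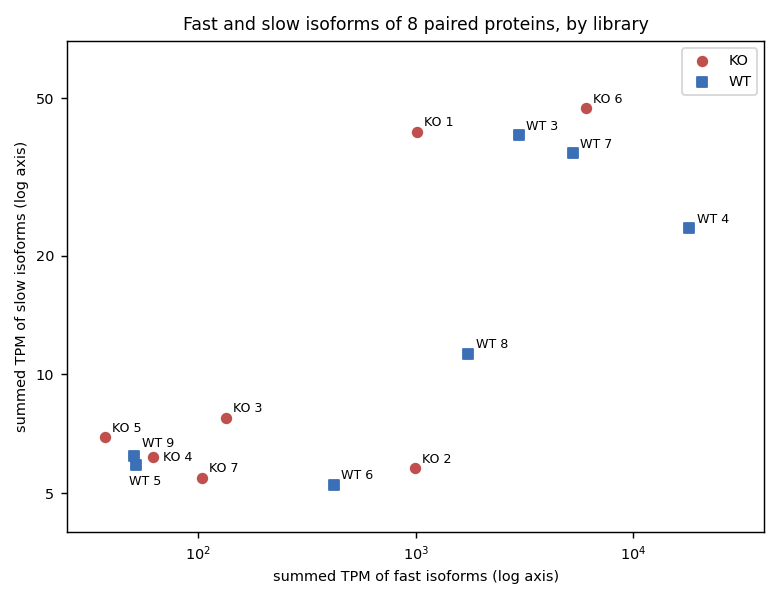
Summed TPM of the slow isoforms (vertical) against the summed TPM of the fast isoforms (horizontal) of 8 paired proteins, 1 point per library, log axes. KO 1, KO 6, WT 3 and WT 7 lie highest, at slow sums of 36.4 to 47.2 TPM, while WT 4 lies farthest right at 18095 TPM with a slow sum of 23.5 TPM.

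The make-up of the 4 heavy chains, whose promoters are printed, could be read in the 7 libraries where they summed to at least 10 TPM. Myh4 made up 77.0, 96.6 and 91.0% of the sum in KO 1, KO 2 and KO 6, and 80.4, 97.6, 89.7 and 94.6% in WT 3, WT 4, WT 7 and WT 8. IIb myosin was the main heavy chain in each. Slow Myh7 made up 6.72% in KO 1, 0.0320% in KO 2 and 0.758% in KO 6, and 0.890% in WT 3 and 0.0408% or less in WT 4, WT 7 and WT 8. The IIx chain Myh1 took its largest share in WT 3, 14.6%, and the IIa chain Myh2 in KO 1, 11.4%. These genes are close relatives, how shared reads were assigned is not given in the sources used here, and the shares of the heavy chains are uncertain to that extent.

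**Figure D4:**
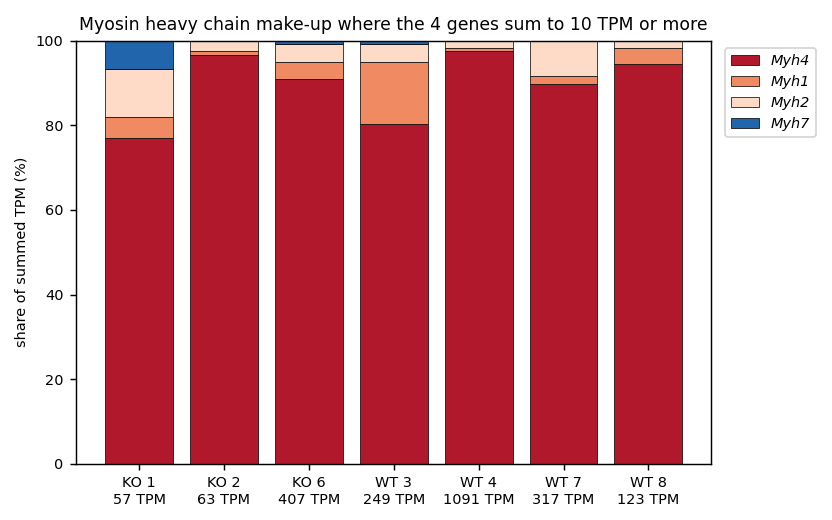
Share of Myh4, Myh1, Myh2 and Myh7 in their summed TPM, in percent, for the 7 libraries where the sum is 10 TPM or more, KO left of WT. Myh4 fills 77.0 to 97.6% of every bar, and the Myh7 share is visible mainly in KO 1 at 6.72%.

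Between genotypes, none of the muscle genes tested passed the threshold of an adjusted p of 0.05. In limma on log2(TPM + 1) over the 14719 genes that reached 1 TPM in 7 libraries or more, with Benjamini-Hochberg adjustment, 0.0204% of genes were called (3, all lower in KO), and 0 of the 35 muscle genes tested were. Myl2, Myh1, Myh7, Tnnc1 and Tnni1 did not reach the expression filter. Of the 35, 31 had a lower mean in KO libraries, against 45.4% of all genes tested, and their median log2 fold change was -1.22 against 0.04 for all genes. The lower means ran through the fast genes (14 of 14, median -1.59) and shared genes (16 of 17, median -1.10), while Myl3, Tnnt1 and Casq2 among the 4 slow genes tested and Tpm3 among the shared had higher means in KO. The genes vary together, so these counts do not add independent evidence. At an unadjusted p under 0.05 the count was 1 of 35, desmin, lower in KO, against 11.4% of all genes in either direction and 6.74% lower in KO, and in 0 of 35 did the groups part without overlap, against 0.319% of all genes.

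The intervals were wide. Acta1 had a log2 fold change of -2.39 ± 1.43 (SE; 95% interval -5.45 to 0.67; limma adjusted p = 0.538). For Ckm it was -1.76 ± 2.07 (95% interval -6.20 to 2.67; limma adjusted p = 0.728), and for Myh4 -1.70 ± 1.82 (95% interval -5.60 to 2.20; limma adjusted p = 0.708). Desmin, at -1.06 ± 0.45 (95% interval -2.02 to -0.10), had a limma p of 0.0327 before adjustment and 0.408 after. Tpm3 had the difference of 0.19 ± 0.28 (95% interval -0.41 to 0.79; limma adjusted p = 0.781) and Casq2 that of 0.35 ± 0.20 (95% interval -0.09 to 0.78; limma adjusted p = 0.527). For 34 of the 35 genes the 95% interval held 0, and intervals this wide do not show that the genotypes were alike.

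Direction itself depended on KO 7, WT 4 and WT 7. Without these 3 libraries, 25 of the 35 genes had a higher mean and 10 a lower mean in KO, the median log2 fold change was 0.10, and the lowest limma adjusted p was 0.486. WT 4 and WT 7 held 2 of the 3 largest muscle sums, with 37915 and 11502 TPM, whereas KO 7 had 482 TPM. All 3 were low in B-cell transcripts, and the part of that difference in the result was not tested.

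**Figure D5:**
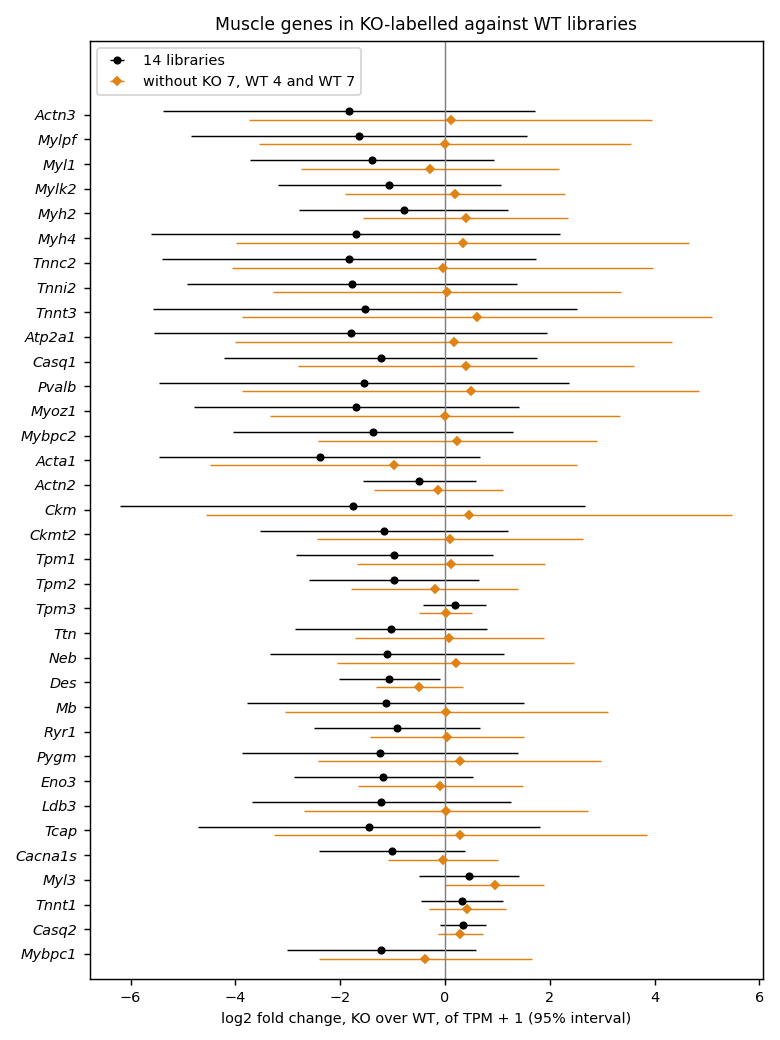
Log2 fold change, KO over WT, of the 35 muscle genes tested, with 95% intervals, from all 14 libraries (circles) and without KO 7, WT 4 and WT 7 (diamonds). Most circles lie left of 0 with intervals that reach past it, and 25 of the 35 diamonds lie right of 0.

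The balance of fast to slow isoforms was compared within libraries, as the difference in mean log2 ratio of (fast TPM + 1) to (slow TPM + 1), with a 2-sided exact permutation test for each of 8 proteins. Tnni1 reached 1 TPM in 2 of the 14 libraries, Myh7 in 3, Myl2 and Tnnc1 in 5 each and Myl3 in 7. Below 1 TPM the pseudocount outweighs the slow isoform, and the ratio mostly follows the level of the fast one. These ratios thus measure a balance only in part. All 8 differences were negative, from -2.10 for troponin I to -0.16 for myosin-binding protein C, and none passed after adjustment over the 8, with adjusted p between 0.396 and 0.829. Without KO 7, WT 4 and WT 7 the difference was above 0 for 4 of the 8, myosin-binding protein C (0.61), troponin T (0.18), calsequestrin (0.10) and the heavy chain (0.051), and the lowest was -1.23 for the essential light chain, with an adjusted p of 0.994 for all 8. The heavy chain ratio was 2.91 ± 2.56 in KO and 4.88 ± 4.08 in WT libraries (log2, SD, n = 7 each), with an exact permutation p of 0.293 and 0.406 after adjustment. The essential light chain ratio, Myl1 to Myl3, was 5.12 ± 1.27 in KO and 6.97 ± 1.88 in WT libraries (log2, SD, n = 7 each), with an exact permutation p of 0.0495 and 0.396 after adjustment. With a pseudocount of 0.1 in place of 1, that difference was -2.67 (exact permutation p = 0.000583, the smallest the test can give; adjusted p = 0.00466). Myl3 was listed at 0 in KO 5 and in WT 5, WT 8 and WT 9, so the pseudocount alone sets the slow side of the ratio in those 4 libraries. It was under the pseudocount of 1 also in KO 4 (0.42 TPM), KO 7 (0.37 TPM) and WT 6 (0.13 TPM).

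Of a list of 49 further genes used in skeletal muscle, not all of them only there, 31 could be tested. Over the 14 libraries 0 were called, 28 had lower means in KO, and the median log2 fold change was -0.77. The 3 with higher means were Actn1, Cox8b and Atp2a2, whose correlations with the members' mean were -0.28, 0.33 and 0.19. Cox8b is counted again below among genes of brown or beige fat. The 10 tested genes outside the 40 that varied most like the members over the 14 libraries were Eef1a2, Pgam2, Rpl3l, Jsrp1, Myot, Hjv, Trim54, Klhl41, Smpx and Apobec2, with correlations of 0.996 to 0.982 with the members' mean, as a description. Eef1a2, the elongation factor of muscle and nerve, was at 0.03 to 40.5 TPM in KO and between a listed 0 and 116 TPM in WT libraries. Pgam2, the muscle phosphoglycerate mutase of glycolysis, was at 1.73 to 187 TPM in KO and 2.27 to 580 TPM in WT libraries.

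Markers of related tissues followed the muscle genes in some cases only. Of 10 heart genes, 6 stayed under 1 TPM in every library, and Myh6, the atrial and ventricular heavy chain of the mouse heart, was at 0.41 TPM at most in KO and 0.36 TPM at most in WT libraries. Actc1, the cardiac α-actin, was at 0.16 to 1.20 TPM in KO and 0.04 to 3.17 TPM in WT, with a correlation of 0.77 with the members' mean. The 2 heart genes that could be tested, Myl4 and Tnni3, were higher. Myl4 was at 6.58 to 16.9 TPM in KO and 7.34 to 14.7 TPM in WT libraries, and Tnni3 at 1.30 to 4.90 TPM in KO and 0.15 to 3.27 TPM in WT. Their correlations with the members' mean were -0.22 and -0.37, both had higher means in KO, and neither was called. The 9 genes of developing muscle and satellite cells, which include the member Des, had 6 under 1 TPM everywhere, with embryonic Myh3 at 0.09 TPM at most in KO and 0.08 TPM at most in WT. Myf6, the regulator that persists in adult fibres, reached 5.39 TPM in KO and 12.8 TPM in WT libraries from a listed 0 in both, with a correlation of 0.94. The 10 smooth muscle genes summed to 103 to 390 TPM in KO and 165 to 558 TPM in WT libraries, and none had a correlation of 0.9 or more with the members' mean. The 10 genes of brown or beige fat summed to 189 to 553 TPM in KO and 198 to 632 TPM in WT libraries. Among them Ucp1, the uncoupling protein, was at 5.16 TPM at most in KO and 0.79 TPM at most in WT, while Cox8b, a cytochrome oxidase subunit also used in muscle, was at 144 to 371 TPM in KO and 125 to 449 TPM in WT, and Cidea, a lipid droplet protein, at 25.4 to 118 TPM in KO and 31.5 to 96.7 TPM in WT. Cox7a1, the muscle and brown fat form of another oxidase subunit, was at 8.18 to 53.3 TPM in KO and 13.4 to 112 TPM in WT libraries, with a correlation of 0.85 with the members' mean. Of 5 skin epithelium genes, 4 stayed under 1 TPM in every library, among them the keratin Krt14 at 0.35 TPM at most in KO and 0.25 TPM at most in WT. The other, Krt10, was at 1.45 to 4.56 TPM in KO and 1.33 to 3.17 TPM in WT. Its log2 fold change was 0.46, with a limma p of 0.0286 before adjustment and 0.404 after. Of 9 neuromuscular junction genes, 6 stayed under 1 TPM everywhere. The 3 tested, Chrnb1, Colq and Rapsn, had log2 fold changes of 0.37, 0.37 and 0.0008, and 0 were called. Their correlations with the members' mean were 0.006, -0.34 and 0.51. Colq was at 0.08 TPM in KO 7, 0.15 in WT 4 and 0.19 in WT 7, and at 4.25 TPM or more elsewhere. Of the 6 low genes, Dok7, Musk and Chrna1 had correlations of 0.87, 0.77 and 0.75, and Chrnd, Chrne and Chrng 0.40, 0.38 and -0.33. Mean TPM of these 6 was lower in KO except for Chrng.

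Other cell types differed in mean level alongside the muscle genes, and their part in the muscle result was not tested. The 8 adipocyte genes, summing to 7246 to 36132 TPM in KO and 14980 to 30250 TPM in WT libraries, had 8 of 8 lower means in KO with a median log2 fold change of -0.55. The 6 B-cell genes, at 188 to 2654 TPM in KO and 82.6 to 2236 TPM in WT libraries, had 6 of 6 higher means in KO, with a median of 1.13. The 6 T-cell genes, at 18.2 to 696 TPM in KO and 4.28 to 702 TPM in WT libraries, had 6 of 6 higher means, with a median of 1.02. These B-cell and T-cell values include KO 7, WT 4 and WT 7, where Cd79a was at 1.52, 0.62 and 1.31 TPM. Cd3e, a T-cell gene, was there at 1.99, 1.07 and 2.69 TPM, against 32.7 TPM or more in every other library. The uneven split of these libraries between the groups enters both medians, which are not given without them. The 5 macrophage genes, at 128 to 268 TPM in KO and 106 to 515 TPM in WT, had 5 of 5 lower means, with a median of -0.36. The 10 smooth muscle genes, of a tissue that also uses desmin, had 10 of 10 lower means in KO, with a median of -0.29, and the 3 endothelial genes 3 of 3 higher means, with a median of 0.21. None of the genes in these lists was called.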

How the data were processed

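Libraries were made from total RNA (1 µg) of frozen adipose tissue, per the labels' protocols. The authors deposited TPM per gene with 2 decimals. The submitters' processing notes name Bowtie 0.12.2 and the builds mm8 and mm9. For the program behind the TPM, its annotation and its use of strand, nothing is given in the sources used here, so reads shared by close relatives (heavy chains, actins, tropomyosins) may be split in ways not known. Groups come from the genotype label. Rows with the same symbol were summed, a gene had to reach 1 TPM in 7 libraries or more to be tested, and log2(TPM + 1) was fitted with limma 3.58.1 (trend, robust, 2-sided) with Benjamini-Hochberg adjustment, which was tested on simulated data. This scale understates changes of low genes. Ratios used exact permutation tests. All 40 members are counted, and those named in full are the actin, Ckm and the isoforms of the 8 ratios, with others by range. Outside the members, the 10 genes most like them were named. The genes and lists were chosen with earlier results of these data known. Each library is 1 mouse, per the series' design text. Promoters are from RefSeq (GRCm38.p6). No protein sequences were used here.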

Additional observations from a re-analysis of the deposited data

Results flagged for a closer look

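Dixon's test was applied to 96 groups of 7 libraries, of which chance flags about 1 in 20, and 3 stood out. Desmin was at 77.4 TPM in KO 6, with the next KO library at 29.3 TPM. Ryr1, the calcium release channel, was at 11.0 TPM in KO 6, with the next KO library at 1.91 TPM. Tnnc1, the slow troponin C, was at 2.49 TPM in WT 3, with the next WT library at 1.19 TPM. KO 6 was also the KO library with the largest sum of muscle transcripts.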

How the results depend on the processing

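In 28 other settings of the fit (pseudocounts, filters, scalings, weights, libraries left out, replicate block) 0 muscle genes were called, the lowest limma adjusted p of a member was 0.151, and the median log2 fold change was below 0 in 27; without KO 7, WT 4 and WT 7 it was 0.10. Leaving out 1 library gave medians of -1.79 (without KO 6) to -0.69 (without WT 4), and array weights gave -0.40, with 823 genes called over the whole table (248 higher, 575 lower) against 3. Of 968 gene values, 944 kept their direction and 24 turned. Without KO 7, WT 4 and WT 7 the log2 fold change turned positive for Actn3 (0.11), Atp2a1 (0.16), Casq1 (0.40), Ckm (0.46), Ckmt2 (0.10), Ldb3 (0.016), Mb (0.024), Mybpc2 (0.24), Myh2 (0.40), Myh4 (0.34), Mylk2 (0.19), Mylpf (0.0010), Neb (0.20), Pvalb (0.49), Pygm (0.28), Ryr1 (0.038), Tcap (0.29), Tnni2 (0.038), Tnnt3 (0.61), Tpm1 (0.11) and Ttn (0.083), and so did the ratios of calsequestrin (0.10), heavy chain (0.051), troponin T (0.18) and myosin-binding protein C (0.61). The cause was not tested. Myh2 was at 0.23 with array weights. With a pseudocount of 0.1 the essential light chain ratio was -2.67 and passed, and that of myosin-binding protein C was 0.26, which ranged from -0.50 to 0.28 with 1 library left out and was above 0 without KO 5, KO 7 or WT 4.

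The groups share the numbers 3 to 7, and the correlation of same-numbered deviations was 0.11, -0.67, 0.60, -0.18 and 0.80, so the numbers were not taken to pair the mice. With a replicate block over these 10 libraries the median was -2.24 with 0 of 29 genes called, as without the block, and Myl3 was at -0.048 in both. The block ratios ran from -3.69 to -0.63 (adjusted p 0.333 to 0.5), where the exact test cannot go below 0.0625. TPM without counts leaves counting error unknown, which limits the slow isoforms most.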
